A study of Mus musculus with 4 samples.

Results

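Actin, vimentin and focal adhesion scaffold genes were followed in exosome RNA from rat mesenchymal stem cells (MSCs) with and without atorvastatin, a statin, which blocks cholesterol synthesis. The set was given as a list of 10 symbols: Actb and Actg1 (cytoplasmic actins), Vim (vimentin), Flna, Actn1 and Actn4 (actin crosslinkers), Tln1, Vcl and Zyx (focal adhesion scaffolds) and Cfl1 (cofilin 1, an actin-severing protein). Each of the 10 was found once among the 42977 rows of the gene table, and each was among the 33480 genes with enough counts to be tested. The study sequenced total RNA from exosomes, small vesicles collected from conditioned medium of bone marrow MSCs of male SD rats aged 6 to 8 weeks, grown to passages 3 to 4 on fetal bovine serum. MSC-Exo (2 libraries) are exosomes of MSCs kept with DMSO as vehicle, and MSCATV-Exo (2 libraries) are those of MSCs pretreated with 1 µmol/L atorvastatin (ATV), both in exosome-free medium pooled over 10 dishes. The labels describe isolation by ultracentrifugation and also by a precipitation reagent, state 24 h of pretreatment in one place and 48 h in another, register the samples as mouse although the cells and the genome build are of rat, and name no separate animals or cultures. SDs and p-values therefore measure the spread between libraries, which may be technical.

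Actin monomers assemble into filaments that push the membrane, carry contractile force and end at focal adhesions, the sites where integrins hold the cell to its matrix. Talin links integrins to actin, vinculin reinforces that link under force, and zyxin is recruited to strained filaments and adhesions. Filamin and the alpha-actinins crosslink filaments, cofilin severs them, and vimentin forms the intermediate filament network typical of mesenchymal cells.

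The gene table held 5350295 to 5947020 counts per library, with 34813 to 37318 genes detected. Olfactory receptor genes, which MSCs are not known to use, gave a measure of the level listed for genes with no role here. The median of 1189 such genes was 1.71 to 2.48 RPKM (reads per kilobase of gene, scaled to the library's total gene count), and their 95th percentile was 9.15 to 10.1 RPKM. The median of all 22633 protein-coding genes was 4.12 to 4.74 RPKM. Of 10 MSC markers, Thy1, Col1a1 and Col3a1 averaged more than the olfactory 95th percentile, 6 others did not, and Col1a2 was listed at 0 in all 4 libraries. Over 9 leukocyte, 6 erythroid and 5 endothelial markers none exceeded it, and of 5 platelet and 6 muscle markers Gp1bb and Acta1 did. The summed level of the leukocyte list was 88.6 to 106 CPM (normalised CPM, a gene's part of the library's counts after edgeR's TMM factors) in MSC-Exo and 80.9 to 99.7 in MSCATV-Exo, that of the endothelial list 84.5 to 104 and 86.3 to 100.1, and that of the MSC list 437 to 492 and 428 to 471. The erythroid sum was 33.6 to 35.7 against 25.6 to 27.8 CPM, the platelet sum 45.0 to 71.2 against 42.8 to 60.0, and the muscle sum 578 to 598 against 521 to 526. The muscle and erythroid sums thus stood lower in both MSCATV-Exo libraries. Most of the muscle sum came from a single gene, Ttn, whose level was only 3.82 to 4.74 RPKM, below the olfactory 95th percentile in every library. Sums in CPM are not corrected for gene length, so the muscle and MSC sums cannot be compared with each other as levels. No marker in these lists was called, and their part in the results below was not tested.

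Together the 10 genes took 0.154% and 0.184% of gene counts in MSC-Exo replicates 1 and 2 (95% exact binomial intervals 0.151% to 0.157% and 0.181% to 0.188%). In MSCATV-Exo replicates 1 and 2 the share was 0.169% (0.165% to 0.172%) and 0.212% (0.208% to 0.216%). The groups overlapped, and replicate 2 had the larger share in each. These intervals cover counting error alone, because PCR copies were not marked by molecular identifiers. Actb alone supplied 42.7% to 45.2% of the counts of the set, and Actb with Vim 62.2% to 66.6%.

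The genes fell into a more abundant and a less abundant class. Actb led with a mean of 625 RPKM over the 4 libraries, rank 3 of all protein-coding genes, and every library of Actb exceeded every library of Vim (mean 207, rank 22). Cfl1 (83.6 RPKM, rank 90) and Actg1 (70.9, rank 112) came next, and their ranges of 62.9 to 107 and 45.9 to 108 RPKM overlapped. Below a gap, Flna averaged 16.0 RPKM (rank 468), Actn1 15.0 (rank 511), Actn4 13.9 (rank 587) and Zyx 12.4 (rank 739). Tln1 averaged 9.25 RPKM (rank 1846) and Vcl 6.06 (rank 7536), still above the median of all 22633 protein-coding genes. Within this class the ranges of all neighbours in the order overlapped. Zyx nevertheless exceeded Tln1, and Tln1 exceeded Vcl, in each of the 4 libraries. Vcl lay below the olfactory 95th percentile in every library, and 6.31% to 33.2% of olfactory receptor genes were listed at or above it. For Tln1 that share was 2.52% to 12.4% and for Zyx 0.420% to 5.64%, whereas no olfactory receptor gene reached Actb, Vim, Cfl1 or Actg1. In RNA of a whole vesicle preparation, fewer vesicles carrying a transcript and fewer copies per vesicle cannot be told apart.

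**Figure D1:**
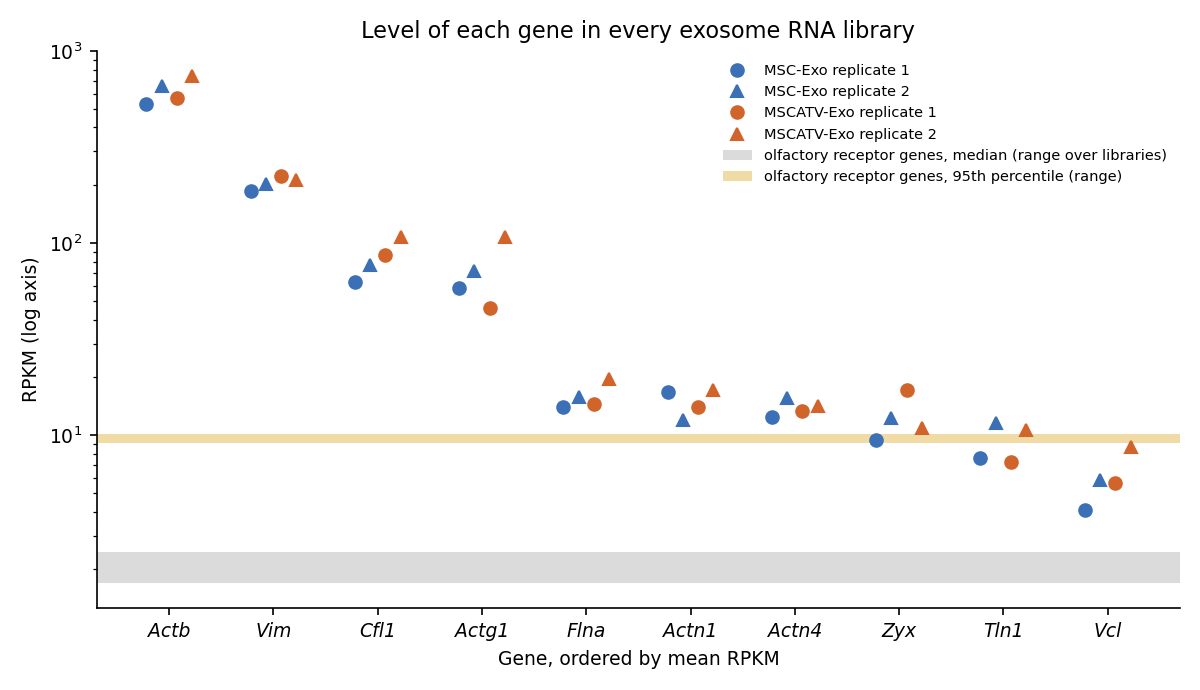
Level of each of the 10 genes in RPKM (log axis) in every library, ordered by mean; circles are replicate 1 and triangles replicate 2, blue is MSC-Exo and orange MSCATV-Exo. Actb, Vim, Cfl1 and Actg1 stand far above the shaded range of the olfactory receptor 95th percentile (9.15 to 10.1 RPKM), while Tln1 lies on both sides of that range, Zyx within or above it and Vcl under it. The grey band is the range of the olfactory receptor median.

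The cytoplasmic actins did not separate the groups. Actb (beta-actin, rat build rn6, chromosome 12, 13715843 to 13718813, plus strand) had 3575 and 4459 counts in the MSC-Exo libraries and 4287 and 5243 in the MSCATV-Exo libraries, or 644, 814, 785 and 935 normalised CPM in that order. MSCATV-Exo replicate 2 was the highest library, but MSCATV-Exo replicate 1 lay below MSC-Exo replicate 2. The group means were 729 ± 120 CPM (SD, n = 2) and 860 ± 106 CPM, and the log2 fold change of MSCATV-Exo over MSC-Exo was 0.24 ± 0.16 (SE), with a 95% interval of -0.13 to 0.60. Its counts are high enough that counting error was at most 1.67%, against a 1.26-fold and a 1.19-fold gap between the libraries of a group. Actg1 (gamma-actin, chromosome 10, 109518429 to 109521288, minus strand) had 661 and 812 counts in the MSC-Exo libraries and 578 and 1280 in the MSCATV-Exo libraries. The MSCATV-Exo libraries were its lowest and its highest, 106 and 228 CPM, 2.16-fold apart, and the MSC-Exo libraries lay between them at 119 and 148 CPM. Its log2 fold change was 0.32 ± 0.33 (SE; interval -0.40 to 1.04), and it became -0.33 when MSCATV-Exo replicate 2 was left out, or 0.77 when replicate 1 of that group was. The sign for Actg1 thus rested on a single library.

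Vimentin was higher in both MSCATV-Exo libraries, by a small margin. Vim (chromosome 17, 80882715 to 80891200, plus strand) had 324 and 355 CPM in the MSC-Exo libraries and 439 and 383 in the MSCATV-Exo libraries, from 1797, 1944, 2399 and 2150 counts. The groups did not overlap, also in RPKM (187 and 202 against 225 and 214). The means were 339 ± 22.2 and 411 ± 39.4 CPM (SD, n = 2), a log2 fold change of 0.28 ± 0.18 (SE; interval -0.11 to 0.67). Of the other 12 intermediate filament genes 9 were lower with atorvastatin and 3 higher (median log2 fold change -0.19), and 0 were called. The number higher was 1 without MSC-Exo replicate 1 and 5 without any other single library, that is MSC-Exo replicate 2 or either MSCATV-Exo library. The 4 highest by mean CPM, not corrected for length, were Lmna (lamin A/C of the nuclear lamina, 0.06 ± 0.30), Synm (synemin, -0.19 ± 0.30), Lmnb2 (lamin B2, -0.20 ± 0.32) and Des (desmin of muscle, 0.99 ± 0.53). Desmin had 56 and 76 counts against 186 and 77, so MSCATV-Exo replicate 1 alone stood apart. Lmna was the only gene of this list whose mean exceeded the olfactory 95th percentile.

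Among the crosslinkers, Flna separated the groups and the alpha-actinins did not. Flna (filamin A, chromosome X, 156460785 to 156487245, plus strand) had 115 and 132 CPM in the MSC-Exo libraries and 135 and 167 in the MSCATV-Exo libraries. The gap between the groups was narrow, and in RPKM, which carries no TMM factor, they overlapped (14.0 and 15.8 against 14.5 and 19.5). The log2 fold change was 0.29 ± 0.23 (SE; interval -0.23 to 0.80). Actn1 (alpha-actinin 1, chromosome 6, 103376557 to 103470497, minus strand), which crosslinks stress fibres, had 47.4 and 34.3 CPM against 44.8 and 50.5. Both MSCATV-Exo values bracketed MSC-Exo replicate 1, and MSC-Exo replicate 2 was the lowest library. Its log2 fold change was 0.22 ± 0.31 (SE; interval -0.46 to 0.91) and 0.01 without MSC-Exo replicate 2. Actn4 (alpha-actinin 4, chromosome 1, 87078012 to 87147347, minus strand) had 55.5 and 71.2 CPM against 67.7 and 65.8, so the MSCATV-Exo libraries lay inside the MSC-Exo range. Its log2 fold change of 0.08 ± 0.27 (SE; interval -0.53 to 0.68) turned to -0.03 when library totals were used without a TMM factor.

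Other crosslinkers and membrane linkers, 16 genes outside the set, were higher in 11 cases and lower in 5, the median log2 fold change was 0.32, and 0 were called. The 4 highest by mean CPM, where long genes gain, were Plec (plectin, which ties intermediate filaments to actin, 0.14 ± 0.19), Sptbn1 (beta-spectrin of the membrane skeleton, 0.31 ± 0.21), Sptan1 (alpha-spectrin, 0.39 ± 0.25) and Flnc (filamin C of muscle, 0.01 ± 0.25). Over the list the groups did not overlap in normalised CPM for 9 genes with MSCATV-Exo higher, Plec, Sptbn1 and Sptan1 among them. For 2 others MSCATV-Exo was lower without overlap. Of all genes 16.1% and 17.4% were apart in these directions. Of other protein-coding genes at 20 RPKM or more 42.4% and 8.43% were, but the list's median was 8.57 RPKM. In RPKM the groups overlapped for Plec (10.1 and 10.4 against 10.2 and 10.8) and Sptan1 (12.7 and 10.5 against 12.3 and 16.1).

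None of the focal adhesion scaffolds was called, and differences among them were not tested. Tln1 (talin 1, chromosome 5, 59033635 to 59063592, minus strand) had 352 and 541 counts in the MSC-Exo libraries and 374 and 516 in the MSCATV-Exo libraries, or 63.4, 98.8, 68.5 and 92.0 CPM. Replicate 2 exceeded replicate 1 in each group, by 1.56-fold and 1.34-fold, and the group means of 81.1 ± 25.0 and 80.2 ± 16.7 CPM (SD, n = 2) nearly coincided. The log2 fold change was -0.02 ± 0.30 (SE), with an interval of -0.67 to 0.64. As a fold this interval runs from 0.63 to 1.56, so a modest change in either direction could not have been seen. Leaving out MSC-Exo replicate 1 moved the log2 fold change to -0.31 and leaving out MSC-Exo replicate 2 to 0.34.

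Vcl (vinculin, chromosome 15, 3455211 to 3544738, minus strand) had 120 and 172 counts in the MSC-Exo libraries and 186 and 269 in the MSCATV-Exo libraries. In normalised CPM the MSCATV-Exo libraries, at 34.0 and 48.0, were both above the MSC-Exo libraries, at 21.6 and 31.4. In RPKM they were 4.06 and 5.81 against 5.66 and 8.69, and the groups overlapped. The CPM fold was 1.55, the largest of the 10 genes, with a log2 fold change of 0.63 ± 0.35 (SE; interval -0.15 to 1.41), and it was 0.36 to 0.93 with a library left out. This was also the scarcest gene of the set, within the range of olfactory receptor genes. Zyx (zyxin, chromosome 4, 71740188 to 71749386, plus strand) had 143 and 185 counts in the MSC-Exo libraries and 288 and 171 in the MSCATV-Exo libraries. MSCATV-Exo replicate 1 was high at 52.7 CPM, and the other 3 libraries lay between 25.8 and 33.8 CPM. The log2 fold change was 0.48 ± 0.36 (SE; interval -0.32 to 1.29), and without that library it was 0.04.

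Integrin and focal adhesion genes outside the set, 30 in all, were split, with 17 higher, 13 lower and 0 called, and the median log2 fold change was 0.02. Without MSC-Exo replicate 1 the number higher was 9. By mean CPM, which favours long transcripts, the 4 leading genes were Kank2 (a talin-binding adhesion protein, 0.47 ± 0.19), Tns3 (tensin 3, 0.20 ± 0.23), Lpp (a zyxin relative, -0.14 ± 0.22) and Tns1 (tensin 1, 0.29 ± 0.29). Kank2 had 1072 and 977 counts against 1445 and 1408, and its unadjusted edgeR p of 0.0344 became 1.00 after adjustment. Vasp, an actin filament elongation factor that binds zyxin, was singled out after its values were seen because it was the other gene of this list with an unadjusted p below 0.05. It had 162 and 125 counts in the MSC-Exo libraries and 71 and 69 in the MSCATV-Exo libraries, the opposite direction to Kank2, with a log2 fold change of -1.04 ± 0.43 (SE) and an edgeR p of 0.0347 before and 1.00 after adjustment.

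Cofilin had the smallest edgeR p of the set, though it was not called. Cfl1 (chromosome 1, 220869805 to 220873337, plus strand) had 372 and 457 counts in the MSC-Exo libraries and 572 and 664 in the MSCATV-Exo libraries. In normalised CPM these were 67.0 and 83.4 against 105 and 118, and in RPKM 62.9 and 77.2 against 87.0 and 107. Both MSCATV-Exo libraries exceeded both MSC-Exo libraries on each scale. The means of 75.2 ± 11.6 and 112 ± 9.69 CPM (SD, n = 2) gave a log2 fold change of 0.57 ± 0.25 (SE), a 1.48-fold difference with a 95% interval of 1.01-fold to 2.18-fold. The edgeR quasi-likelihood p was 0.0464 before adjustment and 1.00 after adjustment over all genes. DESeq2 gave an adjusted p of 0.291, and with a library left out the log2 fold change was 0.41 to 0.74.

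Other genes of actin filament turnover stood mostly on the same side, without a call. Of 24 listed genes 23 were tested, 16 were higher and 7 lower, and the median log2 fold change was 0.20. Tmsb4x (thymosin beta 4, which sequesters actin monomers) had 1314 and 1681 counts in the MSC-Exo libraries and 1685 and 1813 in the MSCATV-Exo libraries (log2 fold change 0.22 ± 0.20). Tmsb10 (thymosin beta 10) was at 0.15 ± 0.21, Pfn1 (profilin 1, which feeds monomers to growing ends) at 0.34 ± 0.22 and Arpc1b (a subunit of the branching Arp2/3 complex) at 0.20 ± 0.27. In all 4 of these the groups did not overlap in normalised CPM, with MSCATV-Exo higher. In RPKM they overlapped for Tmsb4x (387 and 495 against 447 and 511) and Arpc1b (39.5 and 46.7 against 42.0 and 50.7). Separation in normalised CPM with MSCATV-Exo higher held for 10 genes of the list. It also held for 16.1% of all genes and for 42.4% of other protein-coding genes at 20 RPKM or more. Coro1c (coronin 1C, an Arp2/3 regulator), picked after its values were seen, had 105 and 196 against 340 and 232 counts, a log2 fold change of 0.92 ± 0.38 (SE) and an edgeR p of 0.0359 before and 1.00 after adjustment.

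Over the whole set, 9 of 10 genes were higher in MSCATV-Exo and Tln1 was lower, and the median log2 fold change was 0.28. By edgeR 0 of the 10 were called at an adjusted p below 0.05, and of all 33480 genes 0% were called. By DESeq2 0 of the 10 were called, against 0.329% of all genes. Before adjustment 1 of the 10, Cfl1, had an edgeR p below 0.05, against 3.69% of all genes, and the other 9 had p of 0.105 to 0.961. In normalised CPM the groups did not overlap, with MSCATV-Exo higher, for 4 of the 10 (Vim, Flna, Vcl and Cfl1), against 16.1% of all genes. In RPKM Flna and Vcl overlapped, and the log2 fold change of Vcl was -0.05 with its copy rows added. Of the 10 genes 4 (Actb, Vim, Cfl1 and Actg1) had a mean of at least 20 RPKM. The 344 other protein-coding genes at that level had 75.3% higher, a median log2 fold change of 0.24 and 42.4% with MSCATV-Exo above MSC-Exo in every library. For all genes tested the median was -0.01 and 49.4% were higher. A tilt towards MSCATV-Exo was thus present in other abundant genes too.

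**Figure D2:**
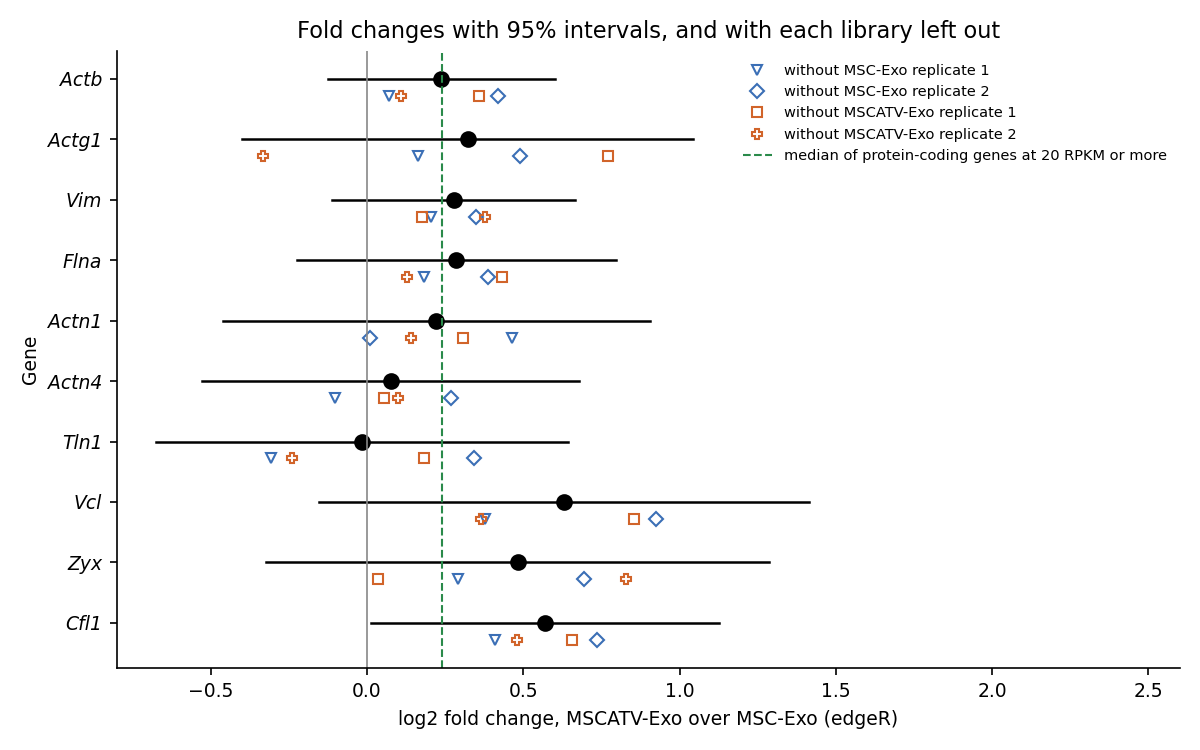
Log2 fold change of MSCATV-Exo over MSC-Exo for each gene from edgeR (black circle) with its 95% interval (line), and below it the value with each library left out (open symbols); the dashed line is the median of other protein-coding genes at 20 RPKM or more (0.24). Only the interval of Cfl1 (0.01 to 1.12) lies above 0, before any adjustment, and the open symbols of Actg1, Actn4 and Tln1 fall on both sides of 0.

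The sign of Actn4 depended on the scaling. With library totals in place of TMM factors the median of all genes was -0.11, a shift of about the same size as in the set, whose median became 0.18 with 8 of 10 higher and Actn4 and Tln1 lower. Values can also be given as multiples of the olfactory receptor median of the same library, a divisor common to every gene. On that scale Actb was at 214 and 279 in the MSC-Exo libraries and 334 and 326 in the MSCATV-Exo libraries, and Cfl1 at 25.4 and 32.7 against 50.9 and 47.2. The olfactory median was itself lowest in MSCATV-Exo replicate 1, at 1.71 RPKM against 2.28 to 2.48 in the other libraries.

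Ratios between genes within a library carry no library scaling. The ratio of Cfl1 to Actb in RPKM was 0.119 and 0.117 in the MSC-Exo libraries and 0.153 and 0.145 in the MSCATV-Exo libraries. Values within a group differed little, and the groups did not overlap. Counting error of the lowest Cfl1 count was 5.18%, more than the gap between the MSC-Exo ratios, so their closeness does not measure reproducibility. An exact two-sided permutation test gave p = 0.333, the smallest that 2 libraries against 2 allow. It was 1 of 5 ratios computed, and the groups overlapped for the other 4. Actg1 to Actb was 0.110 and 0.109 in MSC-Exo but 0.0805 and 0.146 in MSCATV-Exo. Flna to Actb stayed within 0.0240 to 0.0265 in all 4 libraries, although the genes differ in length and lie far apart in level. Vim to Actb was 0.354 and 0.307 against 0.394 and 0.289, and Actn4 to Actn1 0.741 and 1.31 against 0.955 and 0.825. The ratio to Actb was also computed for all 9 other members. It was higher in both MSCATV-Exo libraries for 2, Vcl and Cfl1, and lower in both for 1, Tln1. Vcl and Tln1 averaged less than 20 RPKM. Of the 347 protein-coding genes at 20 RPKM or more (Actb left out), 17.9% had a ratio to Actb that was higher in both MSCATV-Exo libraries, as Cfl1 did, and 19.0% one that was lower in both.

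**Figure D3:**
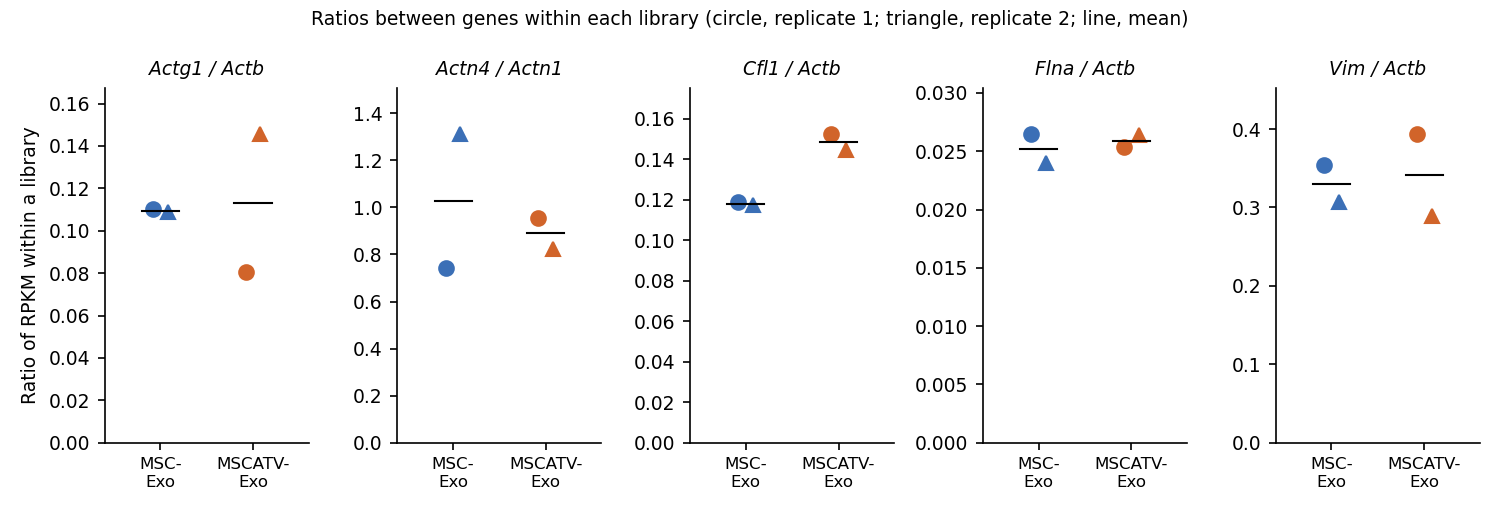
Ratio of RPKM between pairs of genes within each library (circles, replicate 1; triangles, replicate 2; lines, group means), each axis starting at 0. The Cfl1 to Actb ratio is near 0.118 in both MSC-Exo libraries and 0.145 and 0.153 in MSCATV-Exo, while Actg1 to Actb spreads from 0.0805 to 0.146 within MSCATV-Exo.

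Relatives of these genes gave a further scale for the levels. Acta2, the smooth muscle actin that cultured stromal cells also make, had 191 and 295 RPKM in the MSC-Exo libraries and 213 and 217 in the MSCATV-Exo libraries, so Actb was 2.23 to 3.41 times as high. Skeletal Acta1 was at 9.09 to 14.8 RPKM and cardiac Actc1 at 5.27 to 9.16 RPKM, and the Actb to Acta1 ratio ran from 35.7 to 72.5. Muscle Actn2 and Actn3 were at 3.77 to 7.56 RPKM, so the cytoplasmic alpha-actinins were 1.64 to 3.77 times as high in the pairs compared. Of olfactory receptor genes 13.5% to 29.7% were at or above Actn2, 11.3% to 26.5% at or above Actn3 and 5.89% to 25.2% at or above Actc1. Ratios to such genes thus compare with a level that genes with no role here also reach. Talins were not apart: Tln2 had 8.21 and 5.88 RPKM in the MSC-Exo libraries and 5.66 and 7.13 in the MSCATV-Exo libraries, and the Tln1 to Tln2 ratio was 0.921 in MSC-Exo replicate 1 and 1.28 to 1.98 in the others. Flna was 1.49 to 1.86 times as high as Flnc. Cfl1 was 6.46 and 7.79 times as high as Cfl2, the muscle cofilin, in MSC-Exo and 23.6 and 10.3 times in MSCATV-Exo. In MSCATV-Exo replicate 1 Cfl2 had 69 counts, against 164 to 184 elsewhere, and 30.3% of olfactory receptor genes were at or above it. For Tln2 that share was 10.2% to 17.1% over the libraries. The related destrin gene Dstn had a log2 fold change of -0.05 ± 0.29 (SE), and the Cfl1 to Dstn ratio was 1.65 and 2.82 against 3.01 and 3.57. Of 14 genes listed as tissue-restricted, most but not all of them such relatives, 4 were higher and 10 lower in MSCATV-Exo. Their median log2 fold change was -0.19 and 0 were called. With limma on log2(RPKM + 0.1) 2 were higher. By mean CPM, not by RPKM, the list was led by Acta2 (-0.08 ± 0.22), Tln2 (-0.04 ± 0.27), Actg2 (-0.19 ± 0.31) and Ldb3 (a muscle Z-disc protein, -0.59 ± 0.39).

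**Figure D4:**
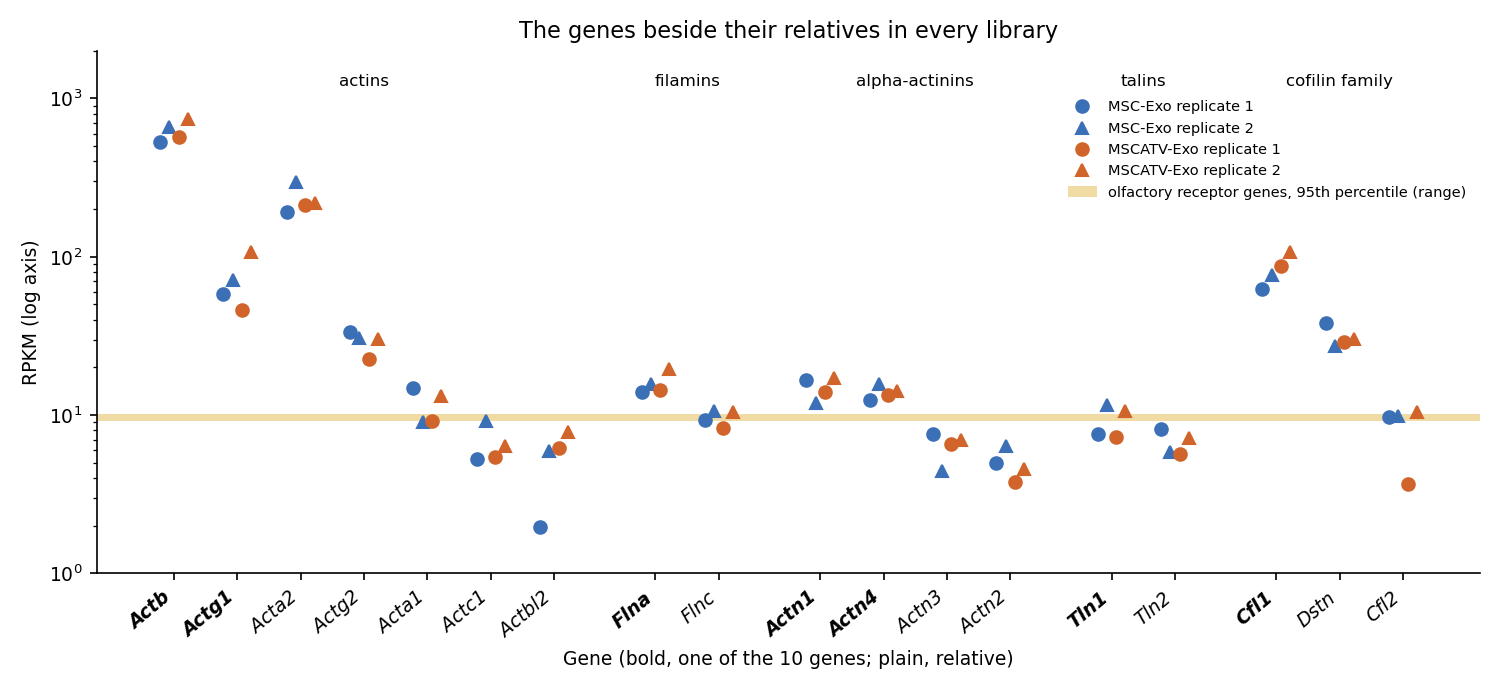
RPKM (log axis) of the actins, filamins, alpha-actinins, talins and cofilins of the set (bold) beside their relatives in every library; the band is the range of the olfactory receptor 95th percentile over libraries. Actb, Actg1, Acta2, Actg2, Flna, Actn1, Actn4, Cfl1 and Dstn stand above the band in every library. Tln1 lies on both sides of the band and Tln2 under it.

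Several of the genes have near copies elsewhere in the genome. By description 23 rows of the table were copies of a member: 11 of Cfl1, 8 of Actg1, 2 of Actb and 2 of Vcl. The tables do not say how reads shared between a gene and a copy were counted, and beta- and gamma-actin themselves encode nearly identical proteins, so the split of counts among these rows is uncertain. Of the summed Cfl1 and copy counts 26.7% to 32.3% lay in the copies, and of the Actg1 sum 17.9% to 33.2%. For Actb the copies held 0.0572% to 1.99%. For Vcl they held 43.1% to 77.4%, most of them in RGD1561442, a protein-coding row described as similar to vinculin, with 386 and 189 counts in the MSC-Exo libraries and 222 and 156 in the MSCATV-Exo libraries. Its log2 fold change was -0.60 ± 0.38 (SE), opposite to that of Vcl. With the copies added to their genes the log2 fold change of Vcl went from 0.63 to -0.05, that of Cfl1 from 0.57 to 0.47, that of Actg1 from 0.32 to 0.20 and that of Actb from 0.24 to 0.25. None of the 20 copies tested was called.

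The average profile of the 10 genes, each centred on its mean log2 CPM over the libraries, was -0.28 and -0.01 in the MSC-Exo libraries and 0.05 and 0.24 in the MSCATV-Exo libraries. It thus differed between the replicates of a group by as much as between some libraries of different groups. Among members Actb (root mean square distance 0.04) and Flna (0.05) followed it most closely, and Zyx (0.35) and Actg1 (0.32) least. Each member is itself part of that average, so member distances cannot be set against those of other genes. Among 598 other genes with a mean of at least 20 RPKM the closest were Tgfb3 (a transforming growth factor, distance 0.02), Rpl7a and Rps16 (ribosomal proteins, 0.03 and 0.04), Oaz1 (an inhibitor of polyamine synthesis, 0.04) and Myl6 (the non-muscle myosin light chain, 0.05). The median distance was 0.27. With 4 libraries many genes can share a profile, and the distances describe these libraries only.

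The authors' deposited table lists higher mean RPKM in MSCATV-Exo with a q-value below 0.05 for 7 of the 10 genes, against 12.4% of the 38021 genes it holds, and lower for 0 of the 10, against 21.9%. In the authors' deposited table Cfl1 has a q-value of 6.88e-06 at a log2 ratio of 0.47, Actb 0.000122 at 0.14, Vim 0.000998 at 0.17, Vcl 0.00273 at 0.54 and Actg1 0.00713 at 0.24. Zyx, with a q-value of 0.0333 in the authors' deposited table, and Flna, with 0.0400, were the remaining ones. The test behind those q-values is not stated in the sources used here. For Actb, Actg1, Flna, Vcl and Zyx the RPKM ranges of the groups overlapped.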

How the data were processed

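RNA of 4 exosome libraries was compared, 2 MSC-Exo against 2 MSCATV-Exo. Per the submitters' processing notes TopHat2 and the rat builds named rn6 and Rnor_6.0 were used; counter and annotation release are not given in the sources used here. The authors deposited raw counts per gene and RPKM, which equals counts over gene length and the sum of gene counts. The authors' comparison table, per the file headers, holds mean RPKM, their log2 ratio, a p-value and an adjusted q-value. The authors' test behind them is not given in the sources used here. The library kit named in the labels' protocols does not mark strand, so overlapping antisense transcripts cannot be told apart. The non-coding tables were not used.

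Counts of every gene went through edgeR 4.0.16 under R 4.3.3, with TMM factors after filterByExpr; its two-sided quasi-likelihood test was adjusted by Benjamini-Hochberg and called at 0.05. SE comes from the fitted weights and the posterior quasi-dispersion, and 95% intervals use the t distribution with the total degrees of freedom. The test was run on counts simulated from its own fitted dispersions, which cannot show how well that model suits these libraries. Genes were named by fixed rules: all 10 members, the 4 genes of highest mean CPM in each of 6 lists, the 5 most similar profiles and relatives or copies by symbol or description. Genes picked otherwise are marked. The result of 1 list and of 1 relative is not reported here. Members and lists were chosen with earlier results of these data known. Alternatives were DESeq2 1.42.0, other scalings and filters, limma 3.58.1 on log2 RPKM, a replicate block and leaving out each library.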

Additional observations from a re-analysis of the deposited data

How the results depend on the processing

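The number of genes called, 0 by edgeR, was 106 by DESeq2, 8 with no filter on low counts and 4 with the replicate block, and 1 to 168 with a library left out (168 without MSCATV-Exo replicate 2, 27 without MSCATV-Exo replicate 1). None of the 10 genes was called under any of the 13 alternatives. The number of members higher was 8 to 10. Of 130 recomputed fold changes 121 kept their direction. Actn4 was -0.0267 with library totals, -0.0155 with limma on log2(RPKM + 1), -0.0159 with limma on log2(RPKM + 0.1) and -0.10 to 0.27 with a library left out. Tln1 was 0.00343 with the replicate block and -0.31 to 0.34 with a library left out, and Actg1 was -0.33 to 0.77. Vcl was -0.0468 with copy rows summed into it, an alternative added after the data were seen. The replicate numbers are not shown to pair libraries (correlation of replicate differences between the groups 0.0109 over 7766 genes), and the block changed no member's call. A lone library is assumed to vary like the other group. Counts of 3 or fewer, 0.504 to 0.561 CPM, cannot be told from 0, and with 2 libraries a group the 95% intervals of the members span 0.73 to 1.61 on the log2 scale.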
